A study of Mus musculus with 7 samples.

Results

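The levels of 5 miRNAs that are widely taken as stable references were examined on 7 microarrays of mouse kidney RNA. They were mmu-miR-191, mmu-miR-425, mmu-miR-361, mmu-miR-186 and mmu-miR-423-5p (mmu stands for mouse and is dropped below), chosen by name from the 696 mouse miRNAs that the array measures. The array lists 4 of them without an arm, and those were read as the -5p arm.

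MicroRNAs are short RNAs that guide Argonaute proteins to messenger RNAs, mostly by pairing of the seed near their 5′ end, and so lower the stability and translation of their targets. A reference miRNA is one whose level is assumed to be equal in all samples, so that the levels of other miRNAs in quantitative PCR or on arrays can be expressed relative to it. MiR-191 and miR-425 are made from neighbouring hairpins of a single cluster, miR-361 is known to target VEGFA, and miR-423-5p is best known as a circulating miRNA in heart failure. In kidney fibrosis such references are used to read miR-21, a miRNA that rises in injured tissue.

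The mice were male C57BL/6 animals of 9 to 12 weeks, and the study compared unilateral ureteral obstruction, in which the left ureter is ligated, with a sham operation in which it is exposed and not tied. Kidneys were taken at day 28. The deposited labels call 3 of the arrays treated and 4 non-treated without tying either word to obstruction, and every difference here is given by those labels, as treated minus non-treated on the log2 scale. Read in this way the miR-21 difference runs opposite to the direction stated by the study for obstructed kidneys, so the operation behind each label cannot be settled from the record. The treated arrays carry the replicate numbers 1, 3 and 4 and the non-treated arrays 1 to 4, each a separate kidney RNA sample hybridised in 1 colour on the same slide.

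The mature sequences are shown because a reference must be measured apart from its relatives, and the seed (bases 2 to 8, in capitals) shows that no pair of the 5 belongs to the same seed family. They come from RefSeq on the GRCm38.p6 build, where all 5 were found.
miR-191: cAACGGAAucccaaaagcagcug
miR-425: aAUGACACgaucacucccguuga
miR-361: uUAUCAGAaucuccagggguac
miR-186: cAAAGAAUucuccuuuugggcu
miR-423-5p: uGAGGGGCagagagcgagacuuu

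Among the 1738 mature mouse miRNAs of the same table, miR-425 shared its seed with 1 other, miR-489-3p, and miR-423-5p shared its seed with 1 other, miR-6921-5p. The seeds of miR-191, miR-361 and miR-186 occurred in no other entry. The sequences were 22 or 23 bases long, with a GC content from 40.9% for miR-186 to 56.5% for miR-423-5p.

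All 5 lie within the span of a protein-coding gene, and exon or intron was not determined here. MiR-191 lies at chr9:108568325-108568347 and miR-425 at chr9:108568789-108568811, both on the plus strand within Dalrd3. MiR-361 lies at chrX:113074867-113074888 on the minus strand within Chm. MiR-186 lies at chr3:157544285-157544306 on the plus strand within Zranb2, and miR-423-5p at chr11:77078122-77078144 on the minus strand within Nsrp1.

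The miR-191 and miR-425 hairpins are separated by 384 bases. They are shown whole, with the mature arm in capitals, because miR-425 was detected on every array and its neighbour on none.
miR-191 hairpin: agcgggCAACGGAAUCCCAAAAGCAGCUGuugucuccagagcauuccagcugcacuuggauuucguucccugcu
miR-425 hairpin: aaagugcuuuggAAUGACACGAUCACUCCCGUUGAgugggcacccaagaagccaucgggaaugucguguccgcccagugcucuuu

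Signals are background-subtracted intensities in arbitrary units, averaged over the spots of each probe and then added up over all probes that target a miRNA. Each array detected between 193 and 282 miRNAs, 186 miRNAs were detected on all 7 arrays and 236 were tested. Non-treated replicate 3 lay apart from its group: the mean log2 signal of the 186 miRNAs was 6.65 there and 7.40 to 7.52 on the other non-treated arrays. Results that rest on this array are given with and without it. On the scale used as the main one, the mean log2 signal of the 186 miRNAs is set equal on every array. Of all miRNAs tested, 23.3% were called higher on arrays labelled treated on this scale and 31.8% lower. Of 9 miRNAs listed as kidney tubule markers, 6 were higher on arrays labelled treated and 1 was lower. Markers of other cells moved with the labels too: all 6 listed white blood cell miRNAs were lower, with differences from -2.52 to -1.76, and so were all 3 fibroblast miRNAs, from -2.55 to -2.41. Without scaling, which leaves the shift of the whole array in place, the summed signal was 1309 to 3038 on non-treated and 181 to 271 on treated arrays for the white blood cell list. It was 2138 to 3963 and 203 to 328 for the fibroblast list, and 5574 to 8965 and 5898 to 9412 for the tubule list. Both red blood cell miRNAs on the array were higher, both smooth muscle miRNAs were lower and neither of the 2 endothelial miRNAs passed the test, while liver miR-122 was detected on no array. Of the 2 brain miRNAs, miR-124 was detected on no array and miR-9 on 3, and of the 2 striated muscle miRNAs, miR-133a was detected on 3 arrays and miR-1 on 7, without passing the test. The part of these shifts in the reference miRNA values was not tested, and in whole tissue fewer cells of a type cannot be told apart from less RNA per cell.

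MiR-191, a common normaliser of serum and tissue miRNA measurements, was not detected on any array. Its 4 probes gave 20 spots per array, and 0 of the 140 spots over all arrays were called well above background by the scanner software. The summed signal was 0.753, 1.46, 0.328 and 2.28 on non-treated arrays 1 to 4. On treated arrays 1, 3 and 4 it was 0.488, 0.439 and -1.42. On each array the sum lay below the lowest positive signal of a detected miRNA there, which ranged from 1.94 to 4.27. The software's own total for miR-191 was at 0.1 on every array.

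The miR-191 spots lay close to the spots of the negative controls, probes made to match no mouse RNA. The 95th percentile of negative-control spots was between 1.10 and 1.65 on the 7 arrays, and 0% to 25% of the miR-191 spots exceeded it. On every array the miR-191 spots averaged slightly above the negative controls, also on treated replicate 4 (-0.354 against -0.453). On non-treated replicate 4, where miR-191 was highest, its spots averaged 0.571 ± 1.46 (SD, 20 spots) and the negative controls -0.327 ± 1.08 (SD, 414 spots). Treated replicate 4 had no miR-191 spot above the percentile. No fold change is therefore given for miR-191, no array could be scaled by it, and the values bound only what this probe set measured in these kidneys.

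**Figure D1:**
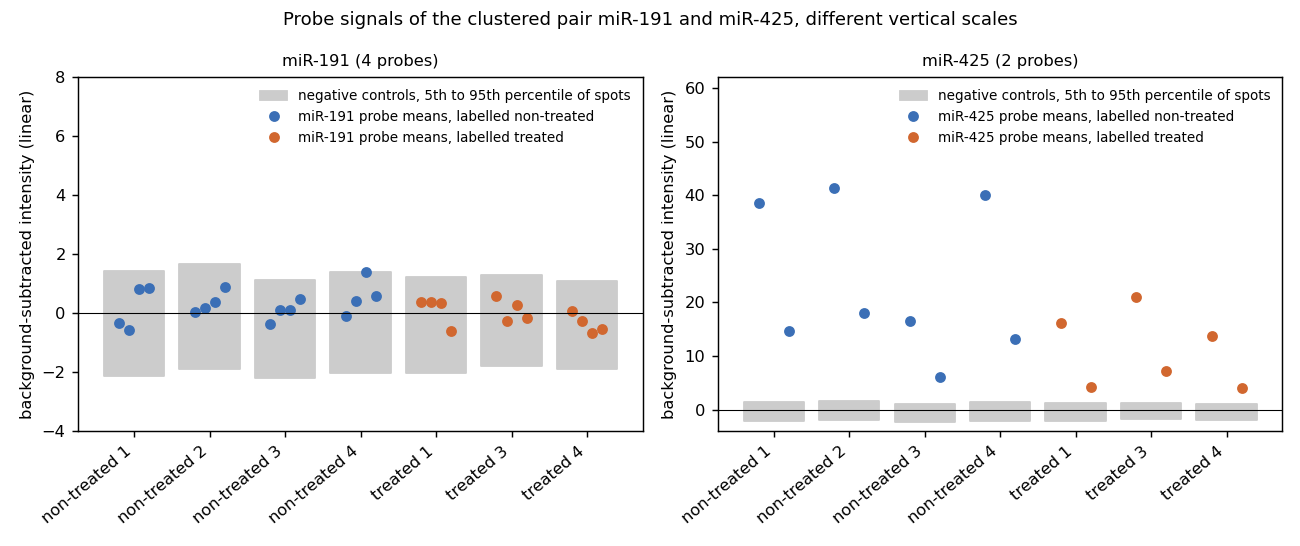
Mean signal of each probe (linear intensity, arbitrary units) by array for miR-191 on the left and miR-425 on the right, on separate axes because probes differ in brightness, with grey bars from the 5th to the 95th percentile of negative-control spots. The 4 miR-191 probes lay between -0.681 and 1.39 on all arrays, whereas the 2 miR-425 probes lay between 4.09 and 41.4.

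MiR-425, from the neighbouring hairpin, was detected on all 7 arrays, with 125 of its 140 spots well above background. Its summed signal was 53.1, 59.5, 22.7 and 53.2 on non-treated arrays 1 to 4, and 20.4, 28.3 and 17.8 on treated arrays 1, 3 and 4. The non-treated replicate 3 value fell inside the treated range, so the unscaled groups overlapped, and without that array every non-treated value was above every treated value. The star arms of both hairpins were also on the array. MiR-425* was detected on no array and miR-191* on 1.

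MiR-361 was the most firmly measured of the set, with all 140 spots well above background and a standard error from spots of 2.16% to 4.65% of its signal. The signal was 109.8, 114.1, 69.0 and 108.8 on non-treated arrays 1 to 4. It was 47.5, 61.7 and 36.7 on treated arrays 1, 3 and 4. The groups did not overlap before scaling, which was so for 72.5% of the miRNAs tested.

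MiR-186 was the least firmly measured of the detected 4, with 52 of 140 spots well above it and a spot error of 4.27% to 13.3%. Its signal was 11.9, 14.6, 8.68 and 13.4 on non-treated arrays 1 to 4 and 5.81, 7.43 and 5.26 on treated arrays 1, 3 and 4. These unscaled groups did not overlap either, although between 3 and 6 spots of 20 were well above background on the treated arrays against 8 to 10 on the others.

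MiR-423-5p was detected on all arrays, with 117 of 140 spots well above background. Its signal was 54.2, 49.5, 26.1 and 42.9 on non-treated arrays 1 to 4 and 19.9, 25.6 and 16.9 on treated arrays 1, 3 and 4. The gap between the groups was narrow, since non-treated replicate 3 lay only just above treated replicate 3. The other arm of its hairpin, miR-423-3p, was detected on no array.

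**Figure D2:**
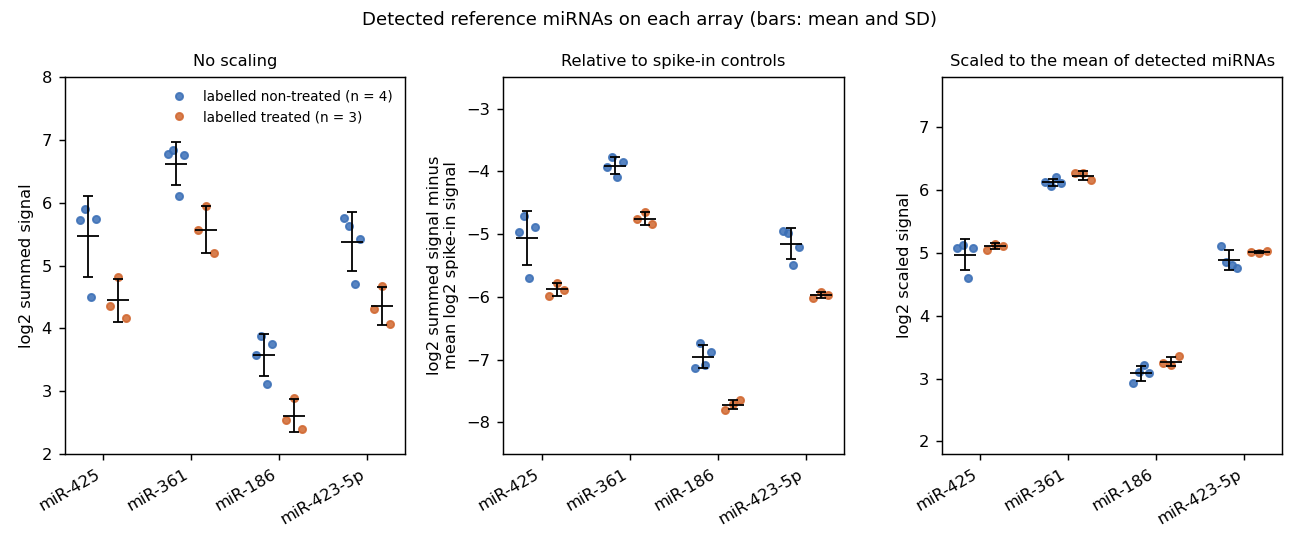
Log2 signal of the 4 detected references, with 1 point per array and bars for the mean and SD of each label, without scaling (left), minus the mean log2 spike-in signal (middle) and scaled to the mean of the detected miRNAs (right). The treated points lay lower in the left and middle panels, apart from miR-425 on non-treated replicate 3 on the left, and the labels came close together on the right, where miR-425 ran from 4.60 to 5.14.

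Without scaling, all 4 detected references were lower on arrays labelled treated by about 1 on the log2 scale. The differences were -1.02 for miR-425, -1.05 for miR-361, -0.97 for miR-186 and -1.03 for miR-423-5p, each with a standard error of 0.32. That error was the same for all 4 because limma pooled it over miRNAs. It is not their own spread: the SD on non-treated arrays ran from 0.33 for miR-186 to 0.65 for miR-425. All 4 passed the test of limma at an adjusted p below 0.01, with adjusted p from 0.00183 to 0.00405. The exact two-sided permutation p was 0.114 for miR-425, whose groups overlapped, and 0.0571, the smallest possible, for each of the others. Most miRNAs did the same: 71.6% of the 236 tested passed, 162 of them lower (68.6%) and 7 higher, and the median difference over all miRNAs was -1.20. The differences of the references were slightly smaller in size than that median. With non-treated replicate 3 left out they were -1.34 for miR-425, -1.22 for miR-361, -1.12 for miR-186 and -1.25 for miR-423-5p, beside a median of -1.39.

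Whether that shift was also present in RNA that did not come from the kidney was asked with the control probes. The 8 spike-in probes measure 4 RNAs named dmr that are added in known amounts during labelling and hybridisation. Their mean log2 signal was 10.53 ± 0.23 (SD, n = 4) on non-treated and 10.32 ± 0.28 (SD, n = 3) on treated arrays, a difference of -0.21 with an exact two-sided permutation p of 0.343. The smallest p that 3 arrays against 4 allow is 0.0571, so no single value can pass 0.05 by this test. Without non-treated replicate 3 the spike-in difference was -0.32, the groups did not overlap (lowest non-treated 10.60, highest treated 10.59), and the exact permutation p was 0.1, the smallest that 3 against 3 allow.

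Relative to the spike-in controls the 4 references stayed lower on treated arrays. The differences were -0.81 for miR-425, -0.84 for miR-361, -0.76 for miR-186 and -0.82 for miR-423-5p, with standard errors of 0.12 to 0.22. All 4 passed (limma adjusted p from 0.000127 to 0.00587), beside 80.1% of all miRNAs, of which 170 were lower (72.0%) and 19 higher. The groups of all 4 did not overlap on this scale, and 86.4% of all miRNAs had groups that did not. The median difference over all miRNAs was -1.03. Scaling subtracts 1 number per array, so the distance of each reference from the median is fixed, apart from the dimmest signals. That the references lay nearer to 0 here is therefore not a separate observation. In the fit without non-treated replicate 3 the 4 differences ran from -0.80 for miR-186 to -1.02 for miR-425, beside a median of -1.11.

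The 19 control probes named hur and mr behaved differently from the spike-in probes. Their mean log2 signal was 12.45 ± 0.42 (SD, n = 4) on non-treated and 11.56 ± 0.29 (SD, n = 3) on treated arrays, a difference of -0.89 (exact two-sided permutation p of 0.114). Non-treated replicate 3 was low for these probes as well, at 11.81 against 12.61 to 12.70. What they detect is not given in the sources used here. Relative to them the 4 references differed by -0.08 to -0.17 and none passed the test, while 66.1% of all miRNAs passed. Without non-treated replicate 3 the difference of the control probes was -1.10, and relative to them miR-425 differed by -0.25 (limma adjusted p of 0.0119), miR-361 by -0.12, miR-423-5p by -0.15 and miR-186 by -0.023.

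When each array was scaled by the mean of the 186 miRNAs detected everywhere, the remaining differences of the references were small and positive. MiR-425 was 5.08, 5.12, 4.60 and 5.08 on non-treated arrays 1 to 4 and 5.05, 5.14 and 5.12 on treated arrays 1, 3 and 4. The low value was that of the array that lay apart. Its difference of 0.13 had a 95% interval from -0.19 to 0.46 (limma adjusted p of 0.421). It rested on non-treated replicate 3: without that array the difference was -0.014 (limma adjusted p of 0.771).

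MiR-361 was 6.13, 6.06, 6.20 and 6.11 on non-treated and 6.27, 6.27 and 6.15 on treated arrays. These groups overlapped, and the difference was 0.11 with an interval from -0.03 to 0.24 (limma adjusted p of 0.133). MiR-423-5p was 5.11, 4.86, 4.80 and 4.77 on non-treated and 5.01, 5.0 and 5.03 on treated arrays. Here the treated values lay inside the non-treated range, and the difference was 0.13 with an interval from -0.08 to 0.34 (limma adjusted p of 0.230). Without non-treated replicate 1, the highest array for this miRNA, the difference rose to 0.21 and passed (limma adjusted p of 0.00803). In that fit 121 miRNAs passed.

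MiR-186 was the 1 reference whose scaled groups did not overlap. It was 2.92, 3.1, 3.21 and 3.09 on non-treated and 3.24, 3.22 and 3.35 on treated arrays, so that the groups nearly touched. The difference was 0.19 with an interval from 0.002 to 0.38, but it did not pass after adjustment (limma adjusted p of 0.0681), and the exact two-sided permutation p was 0.0571, the smallest possible. On the same scale 68.6% of all miRNAs had groups that did not overlap. When non-treated replicate 3 was dropped the difference was 0.21 for miR-186 (limma adjusted p of 0.0370), 0.11 for miR-361 and 0.080 for miR-423-5p, and none passed.

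Set against the array as a whole, none of the 4 references passed on this scale, while 55.1% of the 236 miRNAs did, 75 lower and 55 higher. The median difference of the 4 was 0.13 and that of all miRNAs -0.08. For all 4 the 95% interval lay within 0.5 on the log2 scale, which held for 71 of the 236. The interval bounds the difference, and the missed threshold does not show equality.

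Each detected reference was read by 2 probes. Those of miR-423-5p both gave 0.13, and those of miR-361 gave 0.24 and 0.03. The dimmer miR-423-5p probe had 2, 6 and 3 of 10 spots well above background on treated arrays 1, 3 and 4. The probes of miR-425 gave 0.22 for the brighter and -0.12 for the dimmer, which had 3 of 10 spots well above background on treated arrays 1 and 4. For miR-186 the brighter probe gave 0.31, and the dimmer one had 0 of 10 spots well above background on every array, so that no difference is given for it.

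The size and the sign of the reference differences followed the scaling. Scaling by the mean of all 696 miRNAs gave -0.37 for miR-425, -0.40 for miR-361, -0.32 for miR-186 and -0.38 for miR-423-5p, and none passed while 66.5% of all miRNAs did. Without non-treated replicate 3, miR-425 passed as lower at -0.58 (limma adjusted p of 0.00436), and 69.3% of all miRNAs passed in that fit. The 75th percentile of the detected miRNAs gave -0.06 to -0.14 with none passing, beside 61.4% of all miRNAs. Here too miR-425 passed without that array, at -0.27 (limma adjusted p of 0.00305), and 66.1% of all miRNAs passed in that fit. By contrast the 75th percentile of all miRNAs gave 0.35 to 0.44, and miR-361 (limma adjusted p of 0.00514) and miR-423-5p (limma adjusted p of 0.00272) passed as higher, beside 51.7% of all miRNAs, or 31.8% in that direction. Quantile normalization gave 0.49 for miR-425, 0.05 for miR-361, 0.42 for miR-186 and 0.49 for miR-423-5p. Of these miR-423-5p alone passed (limma adjusted p of 0.00232), beside 50.8% of all miRNAs, or 26.3% in that direction. Quantile normalization was not rerun without non-treated replicate 3. Of the scalings in the plot of differences, 2 placed all 4 references as lower, 1 placed 2 of them as higher, 1 placed 1 as higher, and the others called none.

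**Figure D3:**
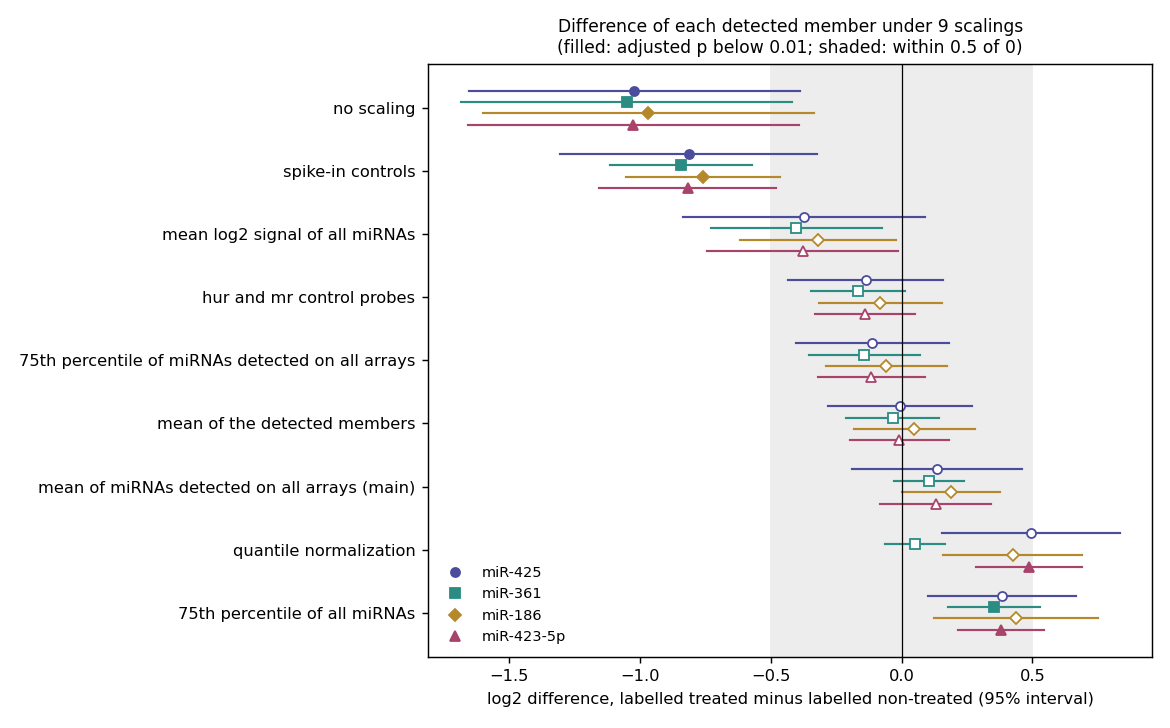
Log2 difference (labelled treated minus non-treated) of each detected reference under 9 scalings, with its 95% interval; filled symbols passed an adjusted p below 0.01 and the shaded band marks values within 0.5 of 0. The 4 references shifted together from about -1 without scaling to between 0.35 and 0.44 with the 75th percentile of all miRNAs, and miR-361 alone stayed near 0 under quantile normalization.

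A ratio of references within an array is free of the scaling. For the 6 pairs of detected references the difference of the log2 ratio between the labels ranged from -0.06 to 0.08, and all 6 had overlapping groups. Over all 7 arrays the ratio of miR-186 to miR-361 differed most, by 0.08, with an interval from -0.14 to 0.30 (limma adjusted p of 0.448, adjusted over all 235 miRNAs expressed relative to miR-361). The ratio of miR-423-5p to miR-425 differed least, by -0.004 with an interval from -0.35 to 0.34 (limma adjusted p of 0.989). No pair passed, while 39.1% of all miRNAs passed relative to miR-425, 58.7% relative to miR-361 and 55.7% relative to miR-186. The widest interval, for miR-186 to miR-425, reached from -0.40 to 0.51. The order changed without non-treated replicate 3: the ratio of miR-186 to miR-425 then differed most, by 0.22 (limma adjusted p of 0.0333). It was followed by miR-423-5p to miR-186 at -0.13 and miR-361 to miR-425 at 0.12. Again none passed, while 53.5% of all miRNAs did relative to miR-425.

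Across the 7 arrays the SD of the log2 ratio was 0.12 for miR-186 to miR-361, the lowest of the 6 pairs, and 0.25 for miR-186 to miR-425, the highest. Non-treated replicate 3 was the highest array in each of the 3 ratios to miR-425. The log2 ratio of miR-361 to miR-425 was 1.61 there, against 0.94 to 1.05 on the other non-treated arrays and 1.04 to 1.22 on the treated arrays. Averaged over its 3 pairs, the SD was 0.16 for miR-361, 0.17 for miR-423-5p, 0.19 for miR-186 and 0.22 for miR-425. Over the 6 arrays without non-treated replicate 3 it was 0.11 for miR-361, 0.12 for miR-425, 0.15 for miR-423-5p and 0.16 for miR-186.

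**Figure D4:**
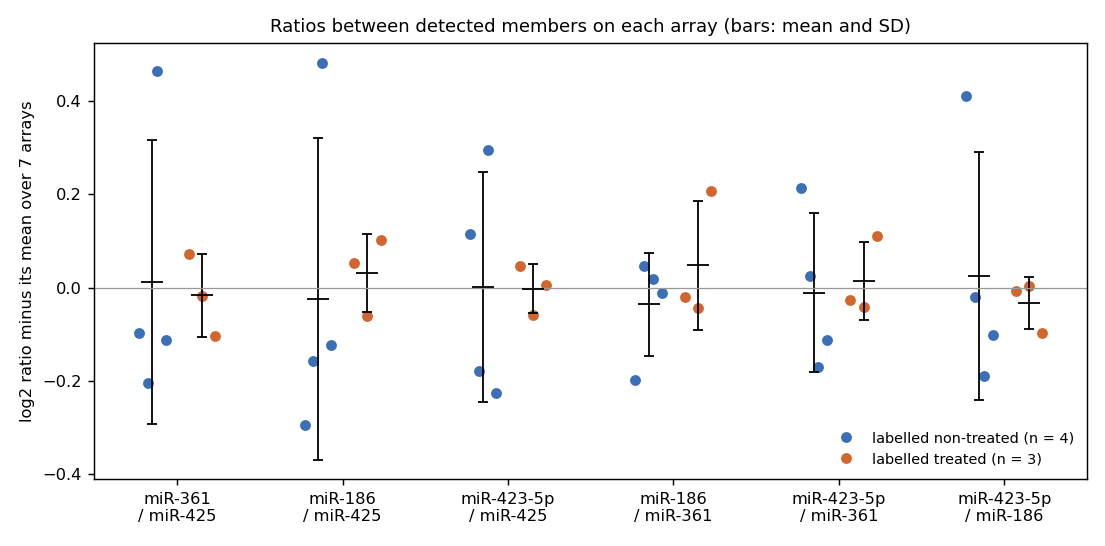
Log2 ratio of each of the 6 pairs of detected references on each array, less the mean of that pair over the 7 arrays, with bars for the mean and SD of each label. The groups overlapped in all 6 pairs, and in the 3 ratios to miR-425 the highest point was non-treated replicate 3, whose log2 ratio of miR-361 to miR-425 was 1.61 before that mean was taken off.

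Stability was also described against the 186 miRNAs detected on every array, by the SD of the scaled log2 value over the 7 arrays, which counts spread within and between the labels. MiR-361 had an SD of 0.08, which ranked 9 from the lowest. MiR-423-5p had 0.13 and ranked 32, miR-186 had 0.14 and ranked 36, and miR-425 had 0.19 and ranked 54. The median over the 186 miRNAs was 0.35, so all 4 were steadier than the middle of the array. None was among the steadiest few, which were miR-98 at 0.048, let-7b at 0.050 and let-7a at 0.051.

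The place of miR-425 depended on non-treated replicate 3. Over the other 6 arrays, on which 189 miRNAs were detected, miR-425 had an SD of 0.035 and ranked 1, the lowest of all. The others kept similar places, with 0.076 and rank 12 for miR-361, 0.12 and rank 34 for miR-423-5p and 0.14 and rank 40 for miR-186.

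The mean SD of the log2 ratio to every other detected miRNA needs no scaling. It is closely tied to the SD of the scaled value, because the main scale subtracts the mean of the same 186 miRNAs. Similar places by the 2 measures are therefore not a separate observation. By the ratios miR-361 ranked 10, miR-186 41, miR-423-5p 42 and miR-425 64. The values were 0.49 to 0.53 beside a median of 0.59. By the SD within the labels, whose median was 0.13, miR-361 ranked 11, miR-186 56, miR-423-5p 80 and miR-425 147, the last with an SD of 0.20. Over the same 6 arrays miR-425 ranked 6 of 189 by this measure, with an SD of 0.038, miR-361 24, miR-186 62 and miR-423-5p 128. Relative to the spike-in controls the 4 references had SDs of 0.43 to 0.54 and ranked between 49 and 79, and without scaling their SDs were 0.59 to 0.74.

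**Figure D5:**
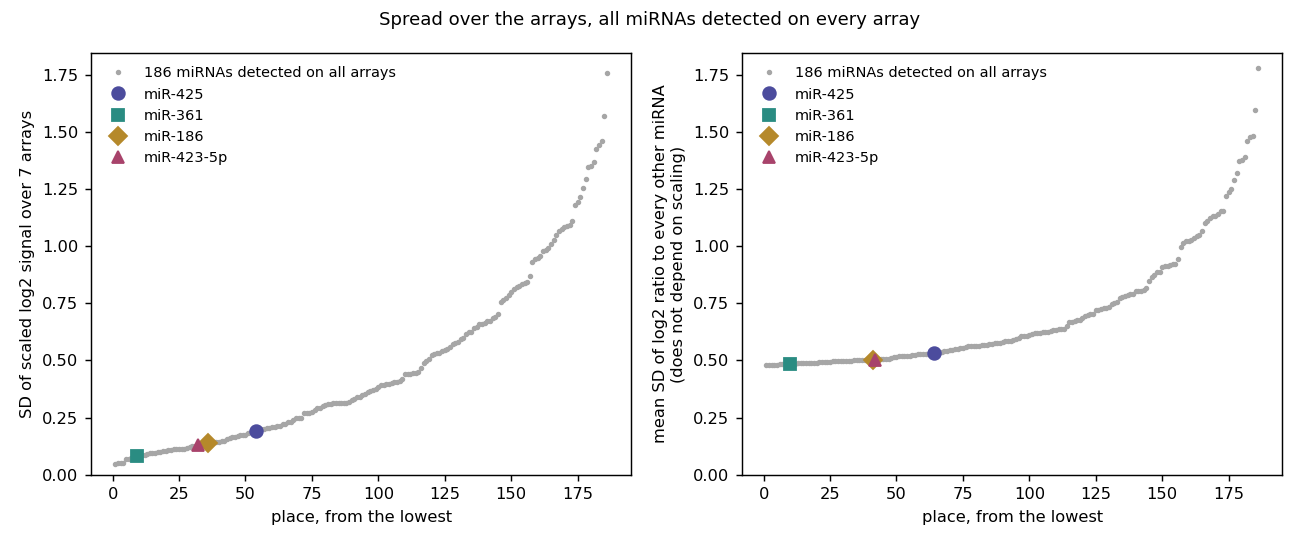
The 186 miRNAs detected on all arrays, placed from the lowest to the highest SD of the scaled log2 signal over the 7 arrays (left) and mean SD of the log2 ratio to every other miRNA (right), with the 4 detected references marked. MiR-361 stood at place 9 on the left and 10 on the right, and all 4 lay below the medians of 0.35 and 0.59.

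The miRNAs closest to each reference were named by the lowest SD of the log2 ratio over the 7 arrays, among 185 compared. MiR-425 was most like miR-29a (0.091) and miR-16 (0.12), and miR-361 most like miR-151-5p (0.064) and let-7f (0.072). MiR-186 was most like let-7f (0.075) and miR-20b (0.086), and miR-423-5p most like miR-320 (0.072) and let-7d (0.10). No reference had another of the set among its 2 closest. The nearest other reference ranked 12 for miR-425, 16 for miR-361, 8 for miR-186 and 9 for miR-423-5p among the 185.

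The other common references were a list of 12 miRNAs chosen with earlier results of these data known. On the main scale all 12 were detected, 0 were higher (23.3% of all miRNAs were) and 4 were lower (31.8% of all miRNAs were): miR-24 at -0.60, miR-152 at -0.50, miR-26a at -0.39 and miR-25 at -0.28 (limma adjusted p from 8.63e-05 to 0.00830). With any 1 array left out 2 or 3 of the 12 passed, and 2 did so without treated replicate 3 or without treated replicate 4. The nearest to 0 were let-7a at 0.013 and miR-103 at 0.014, and the median of the 12 was -0.002. The counts moved with the scaling: all 12 were lower without scaling (from -1.76 to -0.96) and relative to the spike-in controls. With the 75th percentile of all miRNAs 3 were higher and 1 lower. By the mean of all miRNAs 5 were lower (51.3% of all miRNAs were). By the 75th percentile of the detected miRNAs 6 were lower (40.3%), and by the hur and mr probes 5 (44.5%). Under these last scalings none of the 4 detected references passed.

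Each detected reference was then used alone to scale the arrays, and the other 235 miRNAs were tested. Scaling by miR-361 called 138 miRNAs (54 higher and 84 lower, 58.7%), scaling by miR-186 called 131 (49 and 82, 55.7%) and scaling by miR-423-5p called 127 (51 and 76, 54.0%). Scaling by miR-425 called 92 (38 and 54, 39.1%), fewer than the 130 of the main scale. Without non-treated replicate 3 it called 137 of 256, and the main scale 146 of 257. Of those 130, the same miRNAs in the same direction numbered 129 by miR-361, 123 by miR-186, 121 by miR-423-5p and 88 by miR-425. No miRNA was called in the opposite direction by any of the 4. The mean of the 4 together called 139 (53 higher and 86 lower, 58.9%), of which 128 were shared with the main scale. Scaling by spike-in controls shared 94 of the 130 and called 1 in the opposite direction.

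The choice among the references changed the miR-21 difference little, which follows from their small differences on the main scale. Scaling by a reference subtracts its difference from that of miR-21, so the values relative to a reference are not a separate observation. MiR-21 was lower on arrays labelled treated, with a difference of -2.18 on the main scale and an interval from -2.48 to -1.88, which is 4.54-fold. Relative to a single reference the difference was -2.32 by miR-425, -2.29 by miR-361, -2.37 by miR-186 and -2.32 by miR-423-5p, and relative to the mean of the 4 it was -2.32, or 5.01-fold. The same miRNA differed by -3.13, or 8.77-fold, relative to the spike-in controls and by -3.34, or 10.1-fold, without scaling. All these passed the limma test, with adjusted p of at most 0.000135.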

How the data were processed

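Labelled kidney RNA was hybridised to 7 Agilent miRNA arrays in 1 colour. The authors deposited the output of Feature Extraction (version 10.7.3.1 per the submitters' processing notes), which gives each spot a linear intensity with its background removed. Their separate value table equals the first spot of each probe on 6 arrays (tolerance 1e-05) and holds error estimates in place of intensities for treated replicate 4; it was used only as an alternative. The labels name a kit made for fixed tissue for extraction. No direction of the labels was assumed.

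Outlier spots were removed, spots of a probe averaged, and probes of a miRNA summed. A miRNA was detected on an array where the scanner software called it so. Arrays were scaled so that the 186 miRNAs detected everywhere had the same mean on the log2 scale; signals under 5.85 (log2 of 2.55 after scaling) were set to that floor. The scalers over all miRNAs used signals raised to at least 1. In R 4.3.3, limma 3.58.1 (lmFit and eBayes) was fitted to the 236 miRNAs that 1 label or both had detected throughout, with Benjamini-Hochberg adjustment over all of them; an adjusted p below 0.01 was a call. Single values were compared by exact two-sided permutation over the 35 splits of the arrays. Precision is limited by how few arrays there are. The labels do not tie an array to a mouse, so p-values measure the spread between these samples, which may be partly technical. Without scaling, limma gave the 4 references the same pooled error, so those p-values do not measure the spread of each miRNA. All arrays lay on 1 slide, and its 2 rows were tried as a block.

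Named miRNAs were the 5 members, the 2 closest to each, miR-21, miR-192, miR-205, and the called and nearest-to-0 miRNAs of the reference list. Members and lists were chosen with earlier results of these data known. Replicate numbers were not taken to pair the samples: deviations of equally numbered arrays correlated at -0.013, -0.021 and 0.193 over 186 miRNAs. Differently numbered arrays were not compared, so these values cannot exclude a pairing. The fit was tested on simulated data. Alternatives were the scalings, the background correction, the filter, the brightest probe, Bonferroni adjustment, each array left out and the block. Added after seeing the data were the hur and mr scaling, outlier spots kept, the slide row and the deposited table without the array of error estimates. Each scaling except quantile normalization was also run without non-treated replicate 3, again after seeing the data.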

Additional observations from a re-analysis of the deposited data

Results flagged for a closer look

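Of 21 groups of non-treated values examined, 6 held an array that lay far from the others by Dixon's criterion. Chance flags about 5% of single groups. These groups are signals and ratios of the same arrays and overlap, so the count cannot be set against that rate. In all 6 the array was non-treated replicate 3. The scaled log2 signal of miR-425 was 4.60 there against 5.08 to 5.12 on the other non-treated arrays, and the unscaled one 4.50 against 5.73 to 5.89. The unscaled log2 signal of miR-361 was 6.11 against 6.77 to 6.83. For the 186 miRNAs detected everywhere the mean log2 signal was 6.65 against 7.40 to 7.52, and that of the hur and mr control probes 11.81 against 12.61 to 12.70. The log2 ratio of miR-361 to miR-425 was 1.61 against 0.94 to 1.05. Without this array the scaled difference of miR-425 was -0.014.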

How the results depend on the processing

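The scaled differences of the 4 detected references were small and turned sign with the scaler. Without scaling they were -1.02 for miR-425, -1.05 for miR-361, -0.97 for miR-186 and -1.03 for miR-423-5p. By spike-in controls, in the same order, they were -0.81, -0.84, -0.76 and -0.82, by the mean of all miRNAs -0.37, -0.40, -0.32 and -0.38, by the 75th percentile of detected miRNAs -0.11, -0.14, -0.058 and -0.12, and by hur and mr probes -0.14, -0.17, -0.082 and -0.14. By the mean of the 4 members, miR-425, miR-361 and miR-423-5p were at -0.0054, -0.035 and -0.0090. By miR-186 these 3 were at -0.054, -0.084 and -0.058. MiR-361 was at -0.029 by miR-425 and -0.026 by miR-423-5p, and miR-423-5p at -0.0036 by miR-425. In the deposited table, whose column for treated replicate 4 holds error estimates, miR-425 was at -0.016 and miR-361 at -0.040, and with that column left out at 0.024 and 0.16. MiR-361 at 0.35 and miR-423-5p at 0.38 passed when the 75th percentile was taken over all miRNAs, and miR-423-5p passed at 0.49 with quantile normalization. The cause was not tested.

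Leaving out 1 array at a time gave -0.014 to 0.19 for miR-425, 0.084 to 0.17 for miR-361, 0.14 to 0.22 for miR-186 and 0.080 to 0.21 for miR-423-5p, which passed only without non-treated replicate 1. The number of miRNAs called ranged from 112 to 146. That number, 130 on the main scale, was 56 in the deposited table (93 without the column of error estimates), 59 with normexp on median signals and 72 with Bonferroni adjustment. With the replicate block it was 108, and the differences were 0.19, 0.084, 0.20 and 0.12 in the order above, with none passing.

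The pair ratios turned as follows. MiR-361 to miR-425 was 0.13 in the deposited table without the array of error estimates. With normexp it passed at -0.18 (limma adjusted p of 0.00423). Normexp added an offset of 50 to the signals, so its ratios are not comparable with those of the main processing. The share of all miRNAs that passed in that fit is not given here. MiR-186 to miR-425 was -0.17 with outlier spots kept. MiR-423-5p to miR-425 was 0.056 in the deposited table, 0.037 there without the array of error estimates and 0.0031 with normexp, and miR-423-5p to miR-361 was -0.096 in that table without the array of error estimates. Over arrays left out, the ratios of miR-361, miR-186 and miR-423-5p to miR-425 ran from -0.10 to 0.12, -0.036 to 0.22 and -0.079 to 0.094, miR-423-5p to miR-361 from -0.027 to 0.10 and miR-423-5p to miR-186 from -0.13 to 0.070.

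Let-7a and miR-103, nearest to 0 of the other references, were at -1.14 and -1.14 without scaling, -0.94 and -0.93 by spike-in controls, -0.50 and -0.49 by the mean of all miRNAs, -0.23 and -0.23 by the 75th percentile of detected miRNAs, -0.26 and -0.26 by hur and mr probes, -0.57 and -0.37 with normexp, and -0.011 and -0.042 by the brightest probe. By miR-425, miR-361, miR-186, miR-423-5p and their mean let-7a was at -0.12, -0.092, -0.18, -0.12 and -0.13, and miR-103 at -0.12, -0.091, -0.18, -0.12 and -0.13, and miR-103 was at -0.20 by quantile normalization. Left-out arrays gave -0.027 to 0.046 for let-7a and -0.063 to 0.092 for miR-103. Of the 12 other references 4 were called on the main scale, 12 without scaling and by spike-in controls, 2 by miR-425, with no filter on dim miRNAs and with the replicate block, 1 with Bonferroni adjustment and 0 in the deposited table with or without the column of error estimates. MiR-21 was lower and passed in all 31 alternatives, from -3.34 to -1.89.

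MiR-191 was detected on no array, so scaling by it was not run and the mean of the members used the 4 detected. MiR-186 on treated arrays was the value nearest to background and so the least certain.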
